A study of Drosophila melanogaster with 4 samples.

Results

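The regions described here are the long stretches of the Drosophila melanogaster chromosome arms in which no H3K4me1 peak was called. They were taken from the deposited peak list as every gap of 50 kb or more between neighbouring peaks on both arms of chromosomes 2 and 3 (2L, 2R, 3L and 3R) and on X. There were 442 such stretches among 14004 gaps between peaks, or 3.16% of them. The list is 1 table of peaks for 2 H3K4me1 ChIP samples and 2 input samples; input is DNA of the chromatin without the antibody step. All 4 came from wandering third-instar larvae of the strain Y cn bw sp. The genotype given for every sample carries y[1] with oc[R3.2] on X. It has Gr22b[1] and Gr22d[1], then cn[1] and CG33964[R4.2], then bw[1] and sp[1] on the second chromosome. On the third it has LysC[1] with lab[R4.2], MstProx[1] with GstD5[1], and Rh6[1]. Sex is labelled unknown, and no tissue is named. The number of larvae and whether the samples of a group were separate collections are not stated.

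Histone H3 carrying a single methyl group on lysine 4 marks enhancers, both active and poised, and the flanks of active promoters. In flies most of it is laid down by Trithorax-related, a methyltransferase of the COMPASS family, and it is removed by the demethylase Lsd1. Genomes also hold long domains with few marks of activity, among them the heterochromatin around centromeres, Polycomb-repressed domains and gene-poor or tissue-specific stretches that lie against the nuclear lamina. In a preparation of mixed cell types, a mark borne by few cells can fall under the limit of detection. The list gives peaks and no read counts, so a stretch without a peak cannot be told apart from one where the mark was too weak to be called or where reads could not be placed. Positions are in FlyBase release 5 coordinates. A bordering peak is the peak at either edge of a stretch, and its score is the authors' peak score, on a scale that is not stated. The stretches were chosen by the spacing of peaks, and every value comes from the same peak calls, so the values below are descriptions with no test. Depth is unknown and there is no value per sample, so no error between replicates can be given.

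The 442 stretches made up 50.3 Mb, or 42.8% of the 117 Mb between the first and last peaks of the 5 arms. The H3K4me1 peaks themselves took up 18.4% of that sequence, and shorter gaps made up the other 38.8%. The median stretch was 90.2 kb long (95% interval of the median 83.0 to 96.3 kb), with quartiles of 63.9 and 139 kb. Of the stretches, 188 were 100 kb or longer and held 64.9% of the total length, and 44 were 200 kb or longer. Stretches of 50 to 100 kb made up 15.0% of the arms, those of 100 to 200 kb made up 17.3%, and those of 200 kb or longer made up 10.5%. Gaps of 25 to 50 kb, shorter than the limit, made up a further 12.9%.

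The limit of 50 kb does not fall at a break in the lengths. The 3 shortest stretches admitted were 3L, 11716302 to 11766308, of 50007 bp, 3L, 19935416 to 19985618, of 50203 bp, and 2L, 21524628 to 21574853, of 50226 bp. The 3 longest gaps left out were X, 7127287 to 7177219, of 49933 bp, 2L, 21797559 to 21847406, of 49848 bp, and 2R, 20575443 to 20625273, of 49831 bp. The scores of the bordering peaks ran from 15.6 to 118 in the 3 just inside and from 13.9 to 96.3 in the 3 just outside.

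The arms differed in how much of them lay in such stretches. Arm 2L had 92 stretches with 11.1 Mb, which is 48.3% of its span. X had 91 with 10.6 Mb, or 47.3%. On 3R there were 100 stretches with 11.8 Mb, or 42.2%, and on 3L there were 96 with 9.34 Mb, or 40.7%. Arm 2R had the fewest, 63 with 7.47 Mb, or 35.3%. It held 18.0% of the sequence of the arms and 14.9% of the length of the stretches, whereas 2L held 19.6% of the sequence and 22.0% of that length.

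Counted per Mb, 2R had 2.98 stretches (95% Poisson interval 2.29 to 3.82), 3R had 3.58 (2.92 to 4.36), 2L had 4.01 (3.23 to 4.91), X had 4.06 (3.27 to 4.99) and 3L had 4.18 (3.39 to 5.11). These intervals cover counting error only, treat stretches as independent, and overlap for every pair of arms. In windows of 1 Mb counted from the centromere end, stretches took up 49.5% ± 20.4 of 2L (SD, n = 22 windows), 46.9% ± 15.8 of X (SD, n = 22 windows), 42.1% ± 18.1 of 3L (SD, n = 22 windows), 41.9% ± 14.9 of 3R (SD, n = 27 windows) and 35.3% ± 19.3 of 2R (SD, n = 21 windows). The means of the arms lay closer together than 1 SD of the windows of any arm. That SD is the spread of single windows and not the error of a mean, so it cannot tell whether the means differ.

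**Figure D1:**
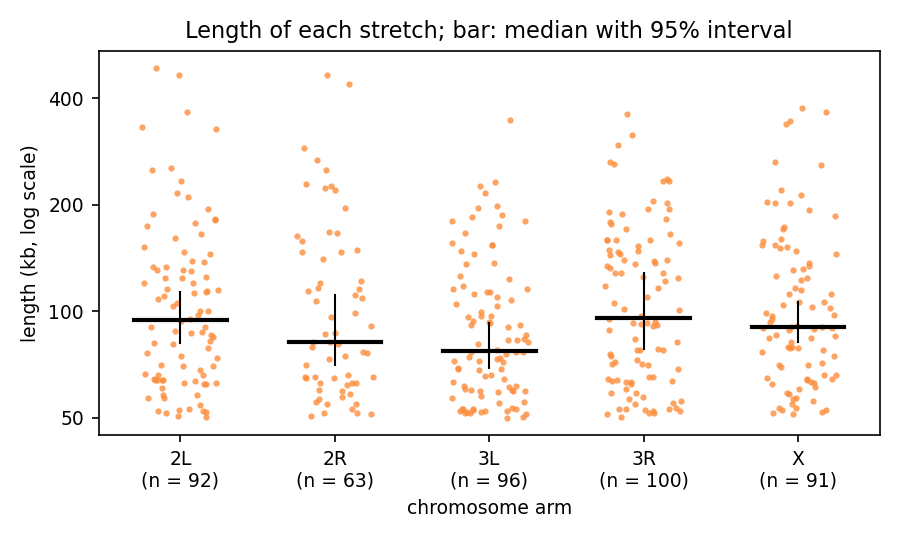
Length of each of the 442 stretches (points, kb on a log scale) by chromosome arm, with the median (thick bar) and its 95% interval (thin line). The medians lie between 77.3 kb on 3L and 96.0 kb on 3R with overlapping intervals, and each arm has a few stretches above 200 kb.

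Individual stretches were of similar length on all arms. The median was 94.6 kb on 2L (95% interval 81.3 to 113 kb), 81.8 kb on 2R (70.5 to 111 kb), 77.3 kb on 3L (69.3 to 92.9 kb), 96.0 kb on 3R (78.2 to 128 kb) and 90.4 kb on X (82.2 to 106 kb). On 3L 31 of 96 stretches were 100 kb or longer (32.3%, exact binomial 95% interval 23.1 to 42.6%). On 3R 49 of 100 reached that length (49.0%, 38.9 to 59.2%), and these intervals overlap. Only 4 stretches on 3L reached 200 kb, against 9 on 2R, 10 each on 2L and 3R, and 11 on X.

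The sequence outside the stretches had nearly the same number of peaks on every arm. Over the whole span, peaks numbered from 107 per Mb on 2L to 133 per Mb on 2R. Outside the stretches they numbered 215 per Mb on X, 211 on 3L, 207 on 2L, 206 on 2R and 205.5 on 3R. The peaks of X covered more of that remaining sequence than those of the other arms. They covered 39.96% of it on X, 32.0% on 2R, 30.5% on 3R, 30.3% on 3L and 29.2% on 2L. X and 2L therefore had similar shares in long stretches, 47.3% and 48.3%, and unlike cover outside them. The peaks are not placed independently of the stretches, so these densities follow in part from the way the stretches were chosen.

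**Figure D2:**
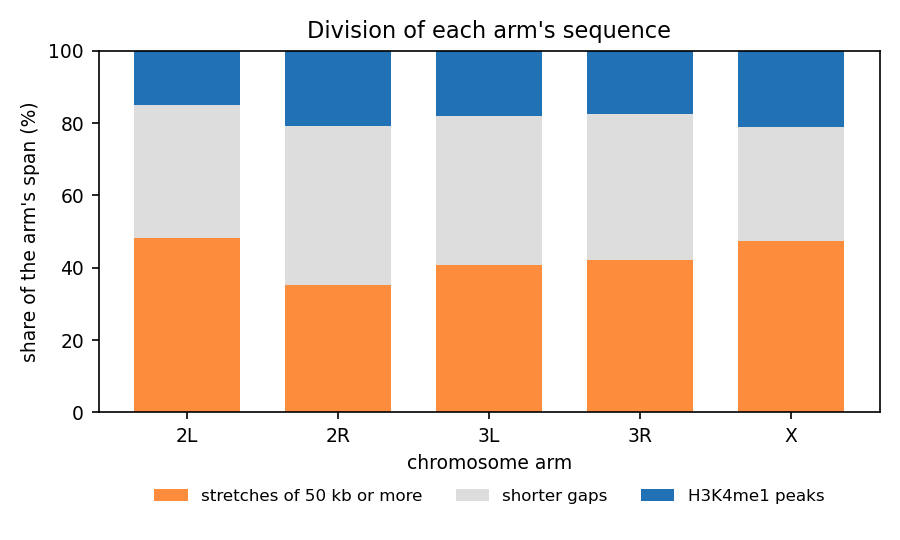
Division of the span of each arm, in percent, into stretches of 50 kb or more without a peak, shorter gaps and H3K4me1 peaks. Stretches take from 35.3% of 2R to 48.3% of 2L, and peaks from 15.1% of 2L to 21.1% of X.

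Along the arms the stretches were spread over the whole length, and the part next to the centromere was richer in them on some arms only. Position was measured from the centromere end of the span of each arm. That end has the high coordinates on 2L, 3L and X and the low ones on 2R and 3R. The span ends at the outermost peak, so any sequence between that peak and the centromere was not counted. The 20% of each arm nearest the centromere held 22.1% of the length of the stretches, the 60% in the middle held 60.1%, and the 20% farthest away held 17.8%. Within those parts, stretches took up 47.3% of the sequence nearest the centromere and 38.0% of the farthest. By number, 85 of the 442 stretches had their midpoint in the nearest 20% and 88 in the farthest. Over the 5 arms together, the nearest 20% thus held more length with no more midpoints. Length was divided at the boundaries and number was not, so the measures are not matched. The arms differed in this. The nearest and farthest 20% had 2.11 and 1.23 Mb with 11 and 13 midpoints on 2R, and 2.75 and 1.82 Mb with 17 and 21 on X. On 3R the order was reversed, with 2.30 and 2.74 Mb and 22 and 23 midpoints.

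The excess next to the centromere lay mainly in the nearest 1 Mb, and was largest on 2R, 2L and X. Each arm has only 1 such window. On 3L its value lay within 1 SD (18.1) of the mean of the windows of that arm (42.1%). On 2L the sixth Mb from the centromere end had 87.4%, about as much as the nearest. Stretches took up 90.0% of that 1 Mb on 2R, 87.7% on 2L, 86.4% on X, 57.1% on 3L and 26.5% on 3R. The rest of each arm had 32.6% on 2R, 46.5% on 2L, 45.4% on X, 39.96% on 3L and 42.8% on 3R. On 3R the order was the opposite of that on the other arms. Over the nearest 2 Mb the share stayed high on X (82.5%) and 2R (77.4%), was 54.2% on 2L, and was 32.4% on 3L and 32.0% on 3R. These distances start at the outermost peak. They leave out any peak-free sequence nearer the centromere, which was not measured on 3L or the other arms. Without the nearest 2 Mb, the arms still had 47.7% in stretches on 2L, 43.8% on X, 43.0% on 3R, 41.5% on 3L and 31.0% on 2R.

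Each arm had its own pattern beyond that. On 2L the richest part was the second 20% from the centromere, of which 71.3% lay in stretches, against 46.7% of the first and 33.9% of the fourth. On 2R the first 20% had 49.9% and the fourth had 45.3%, with 24.3% and 28.3% in the parts between them. On 3L the middle 20% had 48.5% and the farthest had 29.0%. On 3R the middle 20% had 51.0% and the farthest had 49.2%, with 29.0% between them. On X the first 20% had 61.3% and the other parts had 40.7 to 45.7%.

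**Figure D3:**
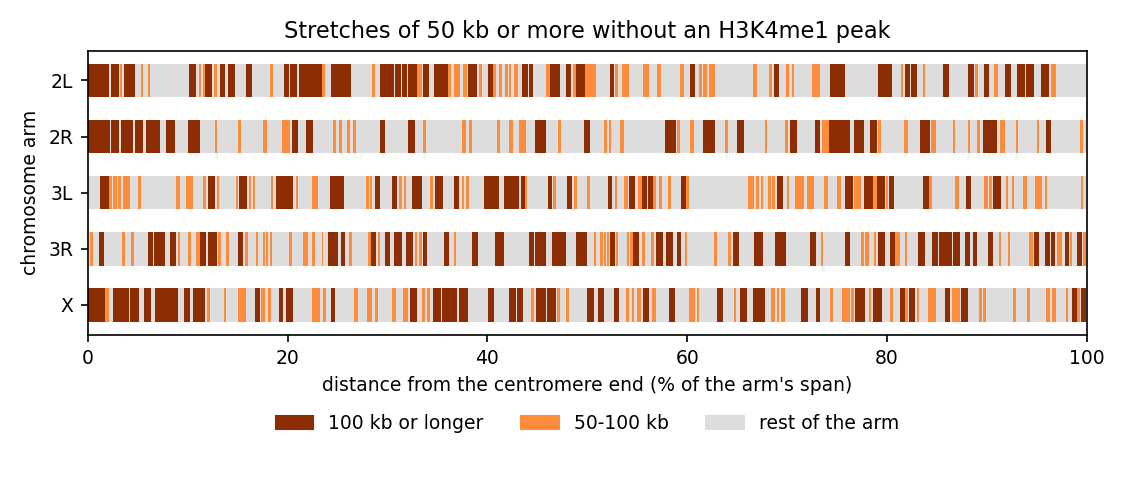
Position of all 442 stretches along each arm, from the centromere end (left, 0) to the far end (right, 100), in percent of the arm's span; dark blocks are 100 kb or longer, light blocks are 50 to 100 kb. Stretches occur along every arm, and on 2R, 2L and X dark blocks fill most of the part next to the centromere.

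Near the centromere end of the span, 2L, 2R and X had a long stretch with only a few peaks beyond it. On 2L only 0.481 kb of the span lay between the longest stretch of the list and the last peak's end, and that final peak was 481 bp wide with a score of 24.8. On 2R the nearest stretch, of 464 kb, began 0.802 kb from the start of the span. On X the nearest stretch, of 375 kb, lay 5.41 kb from the end of the span. These 3 stretches are counted only because a few peaks lay beyond them. On 3R and 3L the first stretch lay 67.4 and 279 kb from the centromere end of the span. Peak-free sequence beyond the span is not counted on any arm. At the far ends, the first stretch lay 26.7 kb from the end on X, 28.6 kb on 3R, 71.9 kb on 2R, 75.2 kb on 3L and 718 kb on 2L.

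Only whole windows of 1 Mb were counted, from the centromere end, so a part under 1 Mb at the far end of each arm lay in none. On 2L that part includes the 718 kb without a stretch at the far end. Window means therefore differ somewhat from the shares of the spans. Among the 114 windows, the median share in stretches was 41.8%, with quartiles of 30.4 and 54.7%, and 7 windows exceeded 75%. The 3 highest were 2R, 18953 to 1018952, with 90.0%, 2L, 21960331 to 22960330, with 87.7%, and 2L, 16960331 to 17960330, with 87.4%. The last of these lies in the sixth Mb from the centromere end of 2L and had 4.01% of its sequence under peaks. Of these whole windows, only 3L, 7942991 to 8942990, held no stretch at all. It lies in a run of 1356 kb on 3L, from 7774505 to 9130160, with 288 peaks and no gap of 50 kb.

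The 3 longest stretches of each arm show what stood at their edges. On 2L, the stretch at 22473280 to 22959849 (487 kb) lay between peaks with scores of 20.3 and 24.8. The stretch at 2L, 16909973 to 17376670 (467 kb), had bordering scores of 35.1 and 13.9, and that at 2L, 17748977 to 18113989 (365 kb), had 31.5 and 19.1. All 6 of these peaks were under 1.5 kb wide.

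On 2R, the stretch at 19755 to 484166 (464 kb) had bordering scores of 30.1 and 9.39, and that at 15692780 to 16130872 (438 kb) had 12.6 and 73.6. The third, at 1250213 to 1539230 (289 kb), had 69.3 and 16.9. At one edge of each stood a peak with a score below 17.

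On 3L the 3 longest were 13507615 to 13853867 (346 kb, bordering scores 36.2 and 47.4), 15256029 to 15487525 (231.5 kb, 24.5 and 58.4) and 4900705 to 5127424 (227 kb, 31.8 and 208). On 3R they were 23790038 to 24150123 (360 kb, 34.3 and 173), 12480614 to 12796019 (315 kb, 84.0 and 18.6) and 13650648 to 13946801 (296 kb, 15.9 and 15.4). The peak of score 173 on 3R was 11118 bp wide and stood directly against a stretch of 360 kb. On X they were 22035568 to 22410626 (375 kb, 21.8 and 88.4), 20532708 to 20898521 (366 kb, 91.1 and 35.0) and 21500711 to 21846919 (346 kb, 99.5 and 90.0). The 3 of X all lay within 2 Mb of the centromere end, and those of 3L and 3R all lay more than 3 Mb from either end of the span.

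Many stretches followed each other with little between them. Stretches with 20 kb or less of sequence between neighbours were put into 1 group. This gave 74 groups of at least 2 stretches, with 167 of the 442 (37.8%, exact binomial 95% interval 33.2 to 42.5%) and 39.3% of the total length. The other 275 stood alone. Of the groups, 62 had 2 stretches, 8 had 3, 1 had 4 and 3 had 5. The median group extended over 238 kb and had 3 peaks between its stretches. On 2L 52 of 92 stretches were in groups (56.5%), on 3L 45 of 96 (46.9%), on 3R 30 of 100 (30.0%), on X 27 of 91 (29.7%) and on 2R 13 of 63 (20.6%). The share depends on the joining distance, and was 22.4% with 5 kb and 60.6% with 50 kb. How many stretches would fall into groups from their number alone was not calculated, so these shares are no measure of clustering. Arm 2R, with the smallest share in groups, also had the fewest stretches per Mb (2.98). The numbers per Mb on 2L, 3L and X were alike (4.01, 4.18 and 4.06), and their shares in groups were not.

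The 4 groups with more than 3 stretches were on 2L and 3L. The one with the longest extent of all, 3L, 4417826 to 5127424, extended over 710 kb and held 5 stretches with 673 kb in all. Between them stood 11 peaks, which together covered 16.5 kb and had scores from 8.69 to 237. At 2L, 11282960 to 11802419, 5 stretches made up 99.2% of 519.5 kb, interrupted by 5 peaks that covered 3.68 kb. At 2L, 15274916 to 15742754, 5 stretches made up 98.1% of 468 kb, with 9 peaks between them. At 3L, 9893383 to 10317929, 4 stretches made up 95.1% of 424.5 kb, with 13 peaks. Among the 8 groups of 3 stretches, which lay on all 5 arms, the one with the greatest total gap length was 2L, 17500523 to 18113989. It extended over 613.5 kb, and only 2 peaks, of 1.96 kb in all and scores of 30.1 and 31.5, stood within it.

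The sequence between neighbouring stretches of an arm formed 437 islands of peaks. The median island was 76.9 kb long with 17 peaks, and the quartiles were 24.5 and 205 kb and 6 and 43 peaks. There were 72 islands of 300 kb or longer and 93 of 20 kb or shorter. Islands were shortest on 3L and 2L, with medians of 56.9 and 60.9 kb, and longest on 2R, with a median of 183 kb and 39 peaks. The median island on X was 78.1 kb long and had 41.5% of its sequence under peaks, against 31.2 to 34.8% on the other arms.

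A single peak was all that parted 2 stretches in 32 places, 12 of them on 2L, 9 on 3L, 5 on X, 4 on 3R and 2 on 2R. These lone peaks had a lower median score than the peaks that bordered no stretch, and their width was less clearly lower. Their median width was 460.5 bp (95% interval 366 to 880), against 850 bp for the peaks that bordered no stretch, a value inside that interval. Of the 32, 10 reached the median width of all peaks of the arms. The widest was 1759 bp. Their median score was 22.4 (95% interval 15.1 to 31.5), against 33.6 for the peaks that bordered no stretch, and 8 of the 32 reached the median score of all peaks of the arms. The lone peak with the most empty sequence around it was at 2L, 17747547 to 17748976, 1430 bp wide with a score of 31.5, between stretches of 161 and 365 kb. It was followed by 2R, 15692580 to 15692779, of 200 bp and score 12.6, between 76.2 and 438 kb. The third was X, 22035101 to 22035567, of 467 bp and score 21.8, between 93.3 and 375 kb. The 2R peak has the smallest width that occurs in the list.

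In all, 852 peaks bordered a stretch. Over the 5 arms together their median width and score were below those of the other peaks, but the arms differed in this. Their median width was 714.5 bp (95% interval 650 to 783), against 850 bp (824 to 874) for the 13157 peaks that bordered none. Their median score was 29.4 (95% interval 26.5 to 31.5), against 33.6 (32.5 to 34.6). These intervals treat peaks as independent. Peaks under 500 bp made up 38.0% of the bordering peaks (324 of 852, exact binomial 95% interval 34.8 to 41.4%), where 33.0% of all peaks of the arms are that narrow. Peaks in the lowest 25% of scores made up 25.5% (217 of 852, 22.6 to 28.5%), a share near the background of 25.0%. At the wide end, 30 of the 852 were at least 5 kb wide (3.52%, 2.39 to 4.99%), and the share among the others was 5.49% (5.11 to 5.89%).

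By arm, bordering and other peaks lay furthest apart on 2L, where the median width was 601 bp (95% interval 471 to 689) at the edges and 828 bp (777 to 877) elsewhere. The median score on 2L was 23.6 (21.2 to 27.1) at the edges and 35.1 (32.5 to 36.9) elsewhere. On 2R the median widths were 646.5 bp (451 to 801) and 838 bp (797 to 891), and on 3L they were 690 bp (562 to 806) and 800 bp (759 to 849). Median scores on 2R were 26.5 (21.8 to 36.1) at the edges and 32.8 (30.55 to 35.0) elsewhere. Those on 3L were 26.8 (23.7 to 33.2) and 31.9 (30.1 to 33.6), so the intervals overlap on both arms. On 3R the order was reversed in width, with 855 bp (670 to 1003) at the edges and 845 bp (805 to 888) elsewhere, and the scores were 31.1 and 33.3. On X the widths were 908 bp (692 to 1151) and 983 bp (904 to 1054), and the scores were 36.1 and 36.5. Peaks under 500 bp made up 44.8% of the bordering peaks and 33.8% of the others on 2L, and 31.6% of either kind on X.

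Over the 5 arms, low medians were found beside shorter gaps too. Peaks that bordered a gap of 5 to 50 kb and no longer one, a comparison chosen after the values were seen, had a median width of 700 bp (95% interval 671 to 740) and a median score of 28.2 (27.1 to 29.6). Peaks whose neighbours on both sides lay within 5 kb had a median width of 933.5 bp (900 to 964) and a median score of 36.5 (35.4 to 37.6). By length of the bordering gap, the median width was 864 bp at gaps up to 1 kb, 662 bp at 10 to 25 kb, 672.5 bp at 50 to 100 kb, 732 bp at 100 to 200 kb and 829.5 bp (572 to 1009) at 200 kb or longer. The median score was 34.3 at gaps up to 1 kb, 26.7 at 10 to 25 kb, 26.4 at 50 to 100 kb, 32.4 at 100 to 200 kb and 32.5 (27.4 to 37.6) at 200 kb or longer. Above 100 kb the bordering peaks thus lay within the error of the others in median score.

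**Figure D4:**
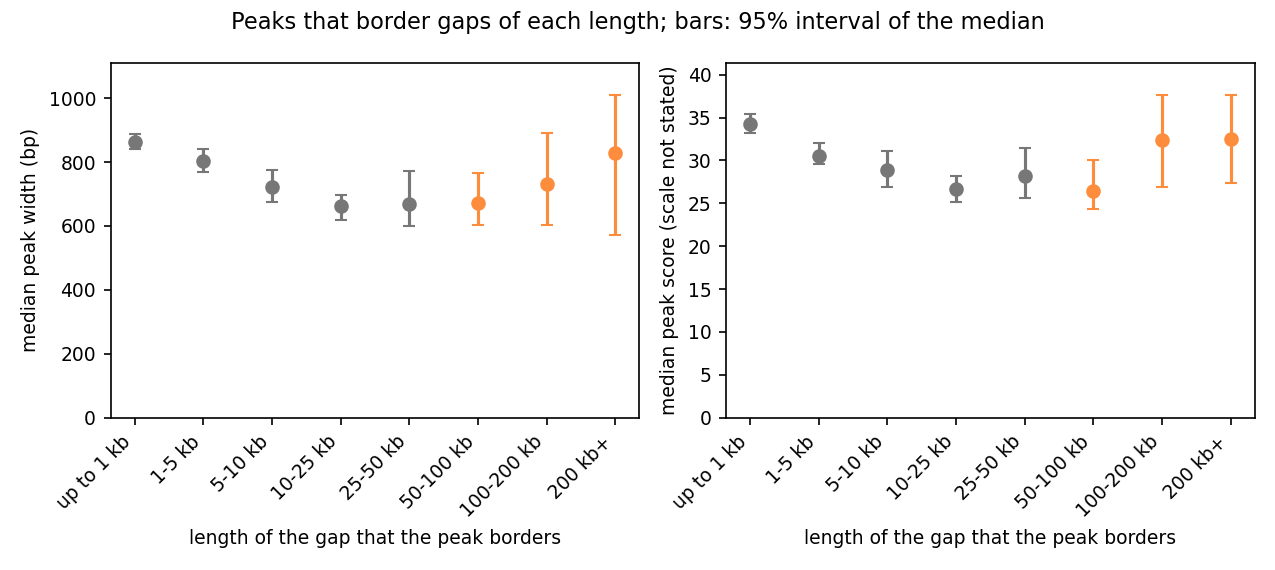
Median width (left, bp) and median score (right, scale not stated) of the peaks that border gaps of each length class, with 95% intervals of the median; orange points are the stretches of 50 kb or more. Both measures are highest at gaps up to 1 kb and low at 10 to 100 kb, and the intervals are wide for the 88 peaks that border gaps of 200 kb or longer.

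Strong peaks also stood at edges. The bordering peak with the highest score, 480.5, was at X, 12636299 to 12657601, was 21303 bp wide, and had a stretch of 125.5 kb on one side and another peak 0.747 kb away on the other. It was followed by X, 12466344 to 12477131, which scored 410 and was 10788 bp wide beside a stretch of 62.5 kb, and by X, 4803326 to 4808826, which scored 349 and was 5501 bp wide beside one of 202 kb. The bordering peaks with the lowest scores were 3R, 4963246 to 4963577 (7.17), 2R, 8673714 to 8673959 (7.35), and 3L, 20913229 to 20913438 (7.54). All 3 were under 350 bp wide.

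The edges of a stretch showed no common strength. Both bordering peaks were below the median score of the arms (33.1) in 144 stretches, one of them was in 211, and neither was in 87. A peak of 5 kb or wider stood at one edge of 30 stretches and at both edges of 0. Spearman's rho between the scores at either edge was 0.012 over 442 stretches that share a single peak list. The peak on the centromere side had the higher score in 219 of 442 stretches (49.5%), with 44.0% on X and 54.3% on 2L as the extremes.

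**Figure D5:**
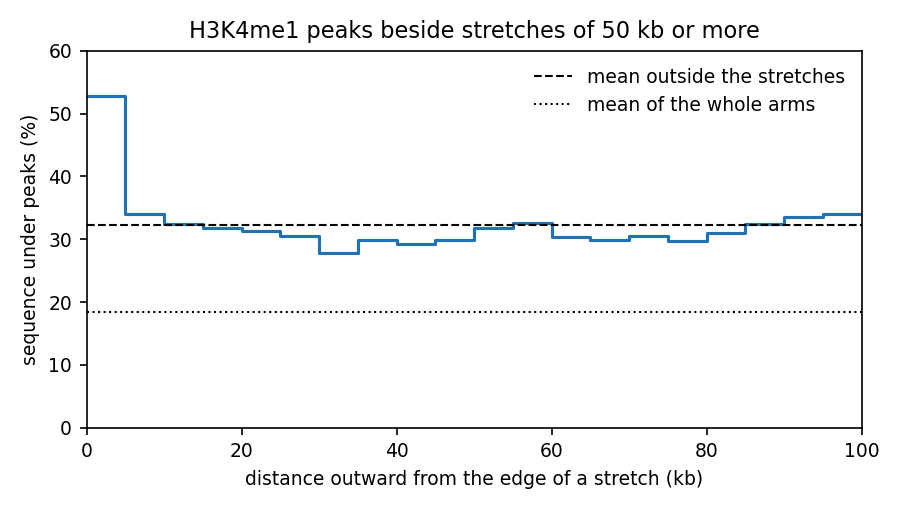
Share of sequence under peaks (percent) in steps of 5 kb outward from the edges of the stretches, with the mean outside the stretches (dashed, 32.2%) and the mean of the whole arms (dotted, 18.4%). After the first step, which contains the bordering peak, the curve stays between 27.8 and 34.1%.

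Outward from the edges, the share of sequence under peaks reached the level of the remaining sequence within the first 10 kb. It was 52.7% in the first 5 kb, which begin with the bordering peak by construction, and 34.1% from 5 to 10 kb. From there to 100 kb it stayed between 27.8 and 34.1%, beside a mean of 32.2% for all sequence outside the stretches. Each step stopped at the next stretch or the end of the arm, so the number of edges fell to 408 in the last step, against 884 in the first. The flanks are part of the sequence behind that mean, and by the rule they hold no gap of 50 kb or more. Closeness to the mean is therefore largely built in. Past the first step, no average fell below 27.8%.

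When peaks within 1 kb of each other were joined, 828 regions stood at the edges. They were also smaller than the others. Their median width was 1.92 kb (95% interval 1.73 to 2.19 kb), against 2.56 kb (2.42 to 2.72 kb) for the 4598 regions that bordered no stretch. A single peak made up 45.7% of the bordering regions (378 of 828, exact binomial 95% interval 42.2 to 49.1%) and 38.7% of the others (37.3 to 40.1%). Regions of at least 5 peaks made up 11.2% and 14.6%.

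The large arms had a higher share of their sequence in such stretches than chromosome 4, a small and largely heterochromatic autosome outside the rule. The share was 42.8% on the large arms and 24.5% on chromosome 4, where 5 of 144 gaps, of 52.2 to 81.3 kb, reached the limit in 1.28 Mb. Single windows of 1 Mb on the large arms ranged from 0 to 90.0% (mean 43.2%, SD 18.0, n = 114 windows). The share of chromosome 4 lies inside that range. Per Mb there were 3.77 stretches on the large arms (95% Poisson interval 3.42 to 4.14) and 3.91 on chromosome 4 (1.27 to 9.12). In the sequence outside the stretches, the share under peaks was 32.2% on the large arms and 13.4% on chromosome 4.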

How the data were processed

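Chromatin of 2 H3K4me1 ChIP samples and 2 input samples was sequenced. Per the submitters' processing notes, the tools were BWA, MACS2 and CASAVA (1.7.0.2 and 1.7.0.3), with BDGP5 as the build. Per the file headers, positions are in FlyBase release 5. How peaks were called, how multiply aligned reads were handled and how samples were combined is not given in the sources used here. The deposited score of each peak, made by the authors' peak caller, was used only to describe, rank and filter peaks within the list. Starts were read as counted from 0, since 2 peaks start at 0; printed positions count from 1.

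The list held 14326 peaks, 14009 of them on the 5 arms. The span of an arm runs from its first to its last peak. A stretch crossing a boundary between parts of an arm was divided by length. Intervals are exact binomial, of order statistics for medians and Clopper-Pearson for shares. Gap finding was tested on simulated peaks. Python 3.11.15, pandas 2.3.3 and scipy 1.17.1 were used.

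The stretches, lists and comparisons were chosen with earlier results of these data known. Named by rule were the 3 longest stretches of each arm, the 5 groups with most stretches (ties by total gap length), the 3 gaps on either side of the limit, the 3 highest and 3 lowest bordering scores, the 3 lone peaks with the longest stretches around them and the 3 windows richest in stretches. Other named places, chromosome 4, the length classes and the arm ends were chosen after their values were seen. Alternatives were other gap limits, peak filters, joining distances and arms left out. Gene and sequence content was not analysed here.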

Additional observations from a re-analysis of the deposited data

How the results depend on the processing

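Of 116 alternative values, 80 were labelled as unchanged. A number of stretches had to stay within 1.5 times. Total length and share of the arms had to match after rounding, so small shifts counted as moved. Other shares and medians had to stay in the 95% interval of the main value. All values for the pooled shares of stretch length in the nearest 20%, middle 60% and farthest 20% of the arms were labelled as unchanged. Their interval was binomial on the number of stretches, so it is not an interval of a length. The label does not mean that the order held. By number in place of length, the nearest 20% had 19.2% and the farthest 19.9%, against 22.1 and 17.8% by length. Other placement values had no alternative. With gap limits of 40, 75 and 100 kb, total length was 55.65, 40.2 and 32.6 Mb and the share of the arms 47.4, 34.2 and 27.8%; the number was 275 at 75 kb and 188 at 100 kb. Without the lowest 10% of scores these were 51.6 Mb and 44.0%, with the upper 50% of scores 60.3 Mb and 51.4%, and without peaks under 300 bp 52.45 Mb and 44.7%. Without the 2 Mb nearest the centromere end of each span they were 44.7 Mb and 41.6%. Without 2L, 2R, 3L, 3R and X in turn, the share was 41.5, 44.5, 43.35, 43.0 and 41.8%. The share of stretches in groups was 22.4, 26.9 and 60.6% with joining across 5, 10 and 50 kb, 13.8% across a single peak, and 44.5 and 29.1% with limits of 40 and 75 kb. At 100 kb the bordering peaks had a median score of 32.5. Without the lowest 10% of scores they had a median width of 801.5 bp and score of 32.5, with 30.9% under 500 bp and 16.8% in the lowest 25% of scores. After joining across 1 kb these were 1920 bp, 52.35, 19.1% and 15.5%. These shifts follow from how each alternative was built. No paired analysis was possible because the peaks carry a single value for the whole series, and no replicate could be left out. With no read counts, the limits set by depth cannot be given.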

Other observations

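Some stretches ended at weak peaks, but in scores such peaks were about as common at the edges as elsewhere. Peaks in the lowest 25% of scores made up 25.5% of the bordering peaks and 25.0% of all peaks of the arms. A stretch changes its limits if the peak at either edge is left out. Leaving out peaks can only lengthen a gap or remove it at the end of an arm, so the values here describe the edges and do not test the stretches. Without the lowest 10% of scores, 356 of the 442 stretches kept the same limits. There were then 453 stretches, 14 of which contained none of the original ones, and 6 of the original ones had merged with another. With only the 7006 peaks in the upper 50% of scores, there were 493 stretches. Of the original ones, 87 kept the same limits and 82 had merged with another. The longest stretch was then 740.1 kb. In that list 99 stretches contained none of the original 442.

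Neighbouring stretches of an arm had weakly related lengths, with a Spearman's rho of 0.11 over 437 pairs of neighbours that share stretches and a single peak list. In windows of 1 Mb, the correlation of the share in stretches between adjacent windows differed by arm. Pearson's r was 0.51 on X, 0.41 on 2R, 0.11 on 3R, 0.071 on 2L and -0.30 on 3L. Each value rests on 21 to 27 windows of 1 arm, and the windows next to the centromere are the highest on X and 2R.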
